A study of Mus musculus with 51 samples.

Results

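The 9 genes described here, Sh3bgr, Brwd1, Psmg1, Ets2, Pigp, Ttc3, Dyrk1a, Cryzl1 and Urb1, lie near Hmgn1 on mouse chromosome 16. They were chosen from their change in the HMGN1 knock out as compared with the other knock outs and the HMGN1 constructs. They are 9 of the 18193 genes that the platform annotation names, and the 29 probe sets it gives to 1 of them alone, of 45101 on the array, are the members. Ttc3 has 7 probe sets, Brwd1 5, Cryzl1 4, Dyrk1a, Ets2 and Sh3bgr 3 each, Urb1 2, and Pigp and Psmg1 1 each. Because the HMGN1 knock out chose the genes, its values and the calls of the fit there are given as a description. They are no independent test of the genes. The same holds for the groups it was set against. A probe set is a group of short array probes summarised as 1 value. All levels below are log2 of the deposited RMA intensity, and all differences are log2 differences with their standard error from the fit.

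RNA was measured on 51 arrays in 17 groups of 3. Primary mouse embryonic fibroblasts (MEFs) of the labelled strain C57BL/6 gave 18 arrays: an HMGN1 knock out, an HMGN3 knock out and an HMGN5 knock out, with a wild-type (WT) group labelled for each of them. SV40-transformed MEFs, an ATCC line, gave 24 arrays, with an empty vector or a retroviral construct labelled HMGN1 OE, HMGN2 OE, HMGN3a OE, HMGN5 OE, HMGN5SE OE, HMGN1_N2swap or HMGN1_N3swap, where OE stands for overexpression. The remaining 9 arrays are of MIN6 cells, a mouse insulinoma line that makes insulin, carrying HMGN1 OE, HMGN3a OE or an empty vector. The infected cells were kept as pools and not cloned, after puromycin selection, so every construct group and its empty vector control share infection and selection. The labels do not say what the swaps exchange, what SE stands for, which allele or exon the knock outs lack, or the age and sex of the embryos. They do not say whether the 3 replicates are separate cultures or embryos either. P-values therefore measure the spread between these arrays, which may be technical. In the groups labelled HMGN1 knock out and HMGN5 knock out, the arrays differ in the X-linked Xist and the Y-linked Eif2s3y. Those arrays are thus not repeats of a single sample, and for the other groups this is open.

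HMGN1 is a small nuclear protein that binds nucleosomes and loosens compact chromatin. Its gene sits in a stretch of mouse chromosome 16 that corresponds to the part of human chromosome 21 known from Down syndrome, and several genes there are studied for their dosage. The genes have unrelated jobs. Brwd1 encodes a chromatin reader with bromodomains and WD repeats, and Ets2 an ETS-family transcription factor. Dyrk1a encodes a dual-specificity kinase and Ttc3 a ubiquitin ligase. Psmg1 is a chaperone of proteasome assembly, Pigp a subunit of the enzyme that starts GPI anchors, and Urb1 a factor of ribosome biogenesis. Cryzl1 resembles quinone oxidoreductases, and Sh3bgr is a small protein known from heart and skeletal muscle.

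In the order of protein-coding genes of the RefSeq table (GRCm38.p6), Brwd1, Psmg1 and Ets2 lie 1, 2 and 3 genes before Hmgn1. Dyrk1a lies 7, Ttc3 9, Pigp 10, Cryzl1 34 and Urb1 52 genes before it, and Sh3bgr lies 3 genes after it. The stretch from Urb1 to Sh3bgr holds 56 protein-coding genes, 46 of which are neither Hmgn1 nor among the 9. Promoter sequences from RefSeq (GRCm38.p6) were found for 9 of the 10 genes looked up, the members and Hmgn1. The windows of Ttc3 and Pigp run on opposite strands, and the Ttc3 window shares 92 to 288 of its 300 bases with 3 of the 4 windows listed for Pigp. The 250 bases before the start of Ttc3, Cryzl1 and Urb1 are shown. Among those of the 9 genes with a sequence, Cryzl1 and Urb1 had the largest falls in the HMGN1 knock out. Ttc3 is shown because it and Pigp sit at 1 shared start region. Capitals mark matches, on either strand, to GGGCGG (the GC box), to CCAAT (the motif of NF-Y), to CCGGAAG (an ETS core), to the palindromic NRF1 motif (searched as an exact run and marked in the Ttc3 sequence) or to TATAAA (the TATA box), and no matches overlap in these sequences.
Ttc3, chr16:94370489-94370738, plus strand: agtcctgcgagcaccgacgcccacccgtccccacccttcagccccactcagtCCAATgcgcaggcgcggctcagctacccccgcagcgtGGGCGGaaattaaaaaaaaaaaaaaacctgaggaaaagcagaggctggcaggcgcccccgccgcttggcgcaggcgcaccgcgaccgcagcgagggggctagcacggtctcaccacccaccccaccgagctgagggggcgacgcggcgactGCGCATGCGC
Cryzl1, chr16:91728803-91729052, minus strand: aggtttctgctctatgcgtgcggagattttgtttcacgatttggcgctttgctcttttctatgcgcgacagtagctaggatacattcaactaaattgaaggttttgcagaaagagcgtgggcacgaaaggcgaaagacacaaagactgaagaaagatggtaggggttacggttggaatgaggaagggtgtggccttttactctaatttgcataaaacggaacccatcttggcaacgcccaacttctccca
Urb1, chr16:90810414-90810663, minus strand: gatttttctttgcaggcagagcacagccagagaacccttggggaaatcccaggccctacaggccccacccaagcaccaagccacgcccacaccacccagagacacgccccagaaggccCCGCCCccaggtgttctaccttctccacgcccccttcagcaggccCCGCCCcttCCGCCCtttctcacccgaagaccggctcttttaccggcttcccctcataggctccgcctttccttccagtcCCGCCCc

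The NRF1 motif was found once before Ttc3, and 2 of the Pigp windows hold it too. It occurs in 0.784% of the 32536 distinct promoter windows of 250 bases. GGGCGG matched 4 times before Urb1 and 1 time before Ttc3, and is in 33% of all windows. CCAAT matched 1 time before Ttc3, against 33.8% of all windows. CCGGAAG (6.95% of all windows) matched 1 time before Psmg1 and in no other window of these genes, and TATAAA (12.3% of all windows) matched in none of them. None of the 5 motifs matched in the 250 bases before Cryzl1. A match is a description of letters, not evidence of binding.

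The 3 cell types have separate distributions, and levels are compared within a cell type only: the median intensity of an array was 5.47 to 5.93 for primary MEFs, 18.7 to 19.6 for SV40 MEFs and 55.5 to 57.6 for MIN6 cells. The filter on dim probe sets kept 26 of the 29 for primary MEFs, 25 for SV40 MEFs and 26 for MIN6 cells. Sh3bgr was dim on all 3 of its probe sets in SV40 MEFs. Fibroblast markers passed for 9 of 9 genes in primary MEFs and 8 of 9 in SV40 MEFs, and beta cell markers for 5 of 5 in MIN6 cells. Of the targeted genes, Hmgn3 was lower in the HMGN3 knock out, with log2 differences of -1.46 and -1.30 on its 2 probe sets. Hmgn5 went against its labels: it was higher by 0.72 ± 0.12 in the group labelled HMGN5 knock out and its log2 difference was -0.93 ± 0.08 in the pool labelled HMGN5 OE. Hmgn2 was not tested, since no probe set named it alone above the filter. The primary MEF arrays also differ in Xist and the Y-linked Eif2s3y, whose values are given beside the results that they touch.

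Hmgn1 itself was lower, but not absent, on the arrays labelled HMGN1 knock out. Its probe set 1422495_a_at read 10.09, 9.91 and 9.97 on the knock out arrays and 10.89, 10.88 and 10.85 on the HMGN1 WT arrays. The other bright probe sets, 1438940_x_at and 1455897_x_at, differed by -0.67 ± 0.05 and -0.89 ± 0.05. The suffix x_at marks probes that can also bind other similar sequences. No HMGN1 knock out array overlapped a WT array on any of the 3.

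Among the 9 genes, Sh3bgr and Cryzl1 had the largest differences in the HMGN1 knock out, of a size like that of Hmgn1. Sh3bgr (1422644_at) read 2.65, 2.71 and 2.67 in the knock out and 3.48, 3.61 and 3.64 in HMGN1 WT, a difference of -0.90 ± 0.10. Its other probe sets, 1433319_at and 1454559_at, were dim in all 6 primary MEF groups and are not counted. The groups of Sh3bgr were far apart compared with the spread inside each. Cryzl1 was lower on 3 of its 4 probe sets. On 1451473_a_at it read 6.97, 6.97 and 7.07 against 7.71, 7.61 and 7.65, a difference of -0.66 ± 0.07. On 1430547_s_at it read 5.74, 6.09 and 6.08 against 6.78, 6.62 and 6.76 (-0.74 ± 0.10). On 1430546_at it read 4.76, 4.49 and 4.71 against 5.64, 5.41 and 5.47 (-0.85 ± 0.12). The knock out and WT arrays did not overlap on these 3. The remaining Cryzl1 probe set, 1440045_at, read 3.83, 3.80 and 3.93 against 4.01, 3.79 and 3.84 and overlapped (-0.03 ± 0.11), so the probe sets of Cryzl1 disagree.

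The genes of synthesis and assembly went different ways. Urb1 (1454841_at) read 3.43, 3.67 and 3.87 in the knock out and 4.34, 4.11 and 4.56 in WT, a difference of -0.68 ± 0.14 with groups that did not overlap. Its second probe set, 1453999_at, was close to the filter and differed by -0.18 ± 0.15 with overlap. Pigp (1436038_a_at) was the member that was called higher: it read 7.25, 7.39 and 7.40 against 7.10, 6.93 and 7.06, a difference of 0.32 ± 0.06. All 3 knock out arrays of Pigp lay above all 3 WT arrays. Psmg1 (1448307_at) read 7.18, 7.41 and 7.32 against 7.52, 7.40 and 7.47, a difference of -0.16 ± 0.06 with overlap.

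The regulators closest to Hmgn1 had small differences, and none of them was called. Brwd1, the direct neighbour, read 5.06, 5.09 and 5.18 on 1452321_at in the knock out and 5.51, 5.31 and 5.34 in WT. It differed by -0.28 ± 0.07 there and by -0.21 ± 0.07 on 1452322_a_at, without overlap on either. Its other 3 probe sets differed by -0.12, -0.10 and 0.18, and all 3 overlapped. Ets2 differed by -0.17 ± 0.09 on 1416268_at, with overlap, and by -0.20 ± 0.09 on 1447685_x_at, without, and its remaining probe set was dim. Dyrk1a read 5.08, 4.95 and 5.06 on 1451977_at against 5.15, 5.24 and 5.15 (-0.15 ± 0.09), without overlap. The other Dyrk1a probe sets differed by -0.26 ± 0.16 and -0.04 ± 0.10 and overlapped. Ttc3, which shares its start region with Pigp, had differences of 0.09 to 0.16 on 6 of its probe sets and -0.04 on 1441684_at. On its brightest probe set, 1448361_at, Ttc3 read 8.07, 8.16 and 8.09 against 7.98, 8.00 and 8.01, a difference of 0.11 ± 0.06 without overlap.

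Over all of these genes, 5 of 26 tested probe sets were called in the HMGN1 knock out at an adjusted p under 0.05, by limma's moderated test with Benjamini-Hochberg adjustment. Over all 28578 probe sets tested 0.304% were called. The called ones are 1 probe set of Sh3bgr, 3 of Cryzl1 and that of Pigp. The groups did not overlap for 12 of the 26, against 19.7% of all probe sets. Since the genes were chosen on this contrast, nothing is read from either count. The calls of Pigp, Cryzl1 1430546_at and Cryzl1 1430547_s_at depended on the fit: with only the 6 HMGN1 arrays, their adjusted p was 0.241, 0.0538 and 0.148. In that fit 2 calls were left, and 0.0385% of all probe sets were called. The call of Pigp was also lost when any of 4 of the 6 arrays was left out.

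**Figure D1:**
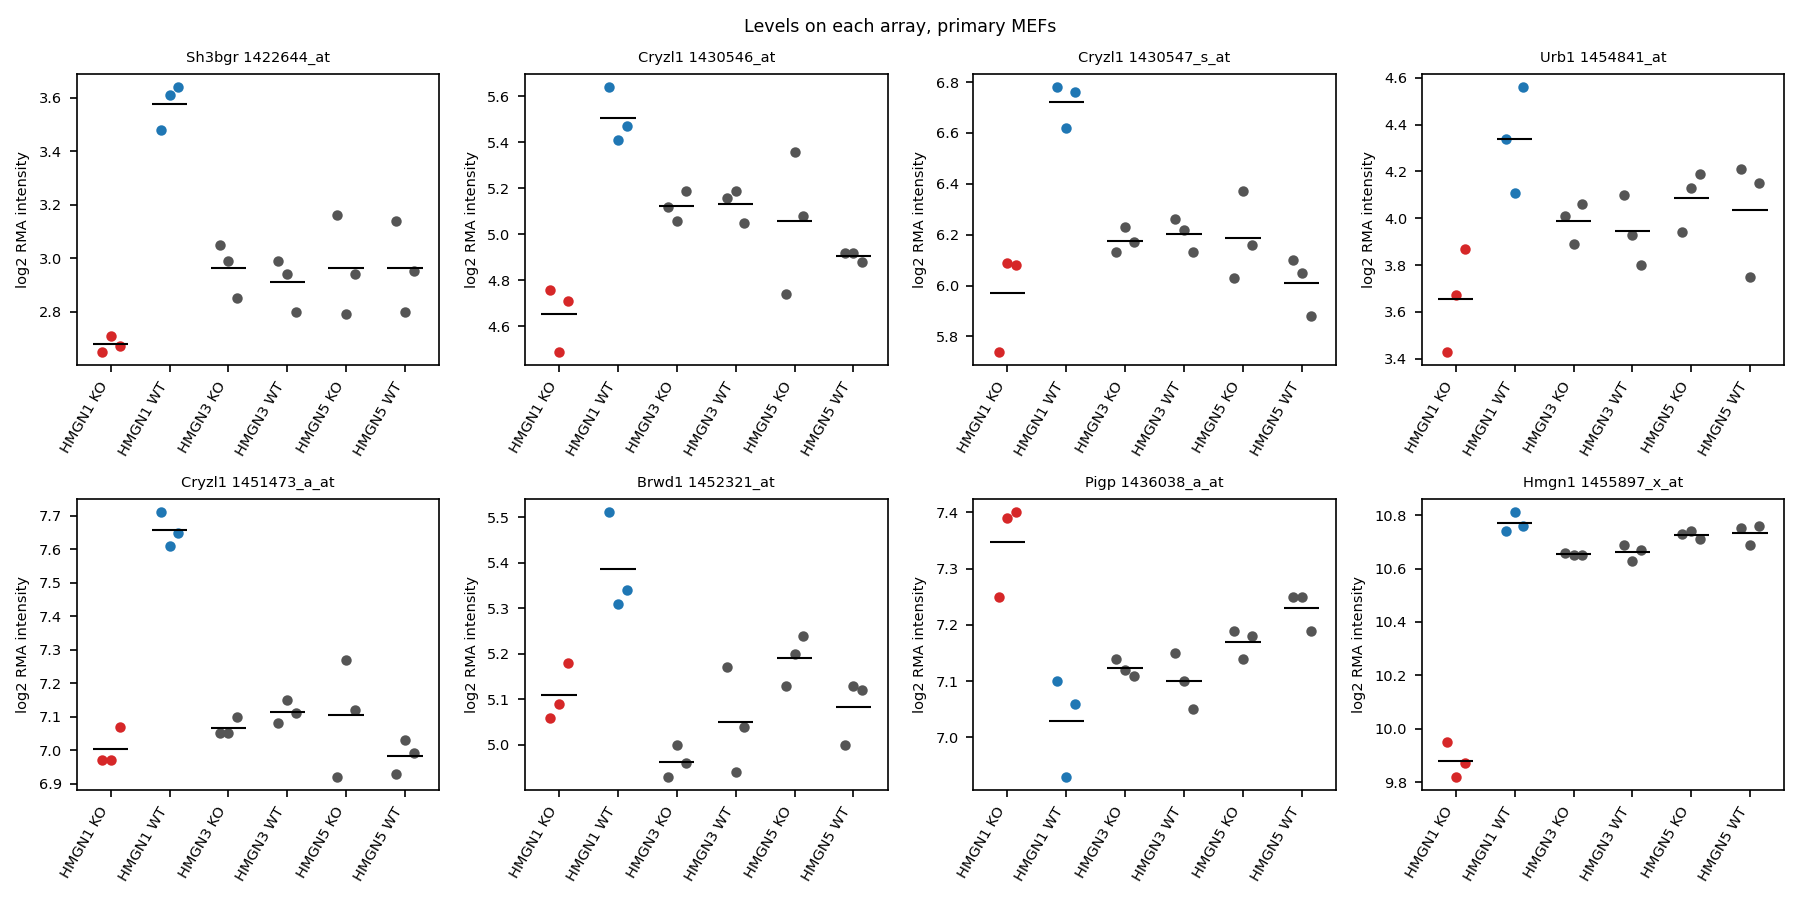
Log2 RMA intensity (vertical axis) of 8 probe sets on the 18 primary MEF arrays, by group (horizontal axis); each point is an array, bars are group means, red is the HMGN1 knock out, blue HMGN1 WT and grey the other groups. Cryzl1 and Sh3bgr are highest in HMGN1 WT, with the knock out nearer to or below the grey groups, whereas Hmgn1 is low in the knock out alone.

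Set beside the other primary MEF groups, HMGN1 WT was the group that stood apart for Cryzl1 1451473_a_at, and for Sh3bgr neither HMGN1 group overlapped with the other groups. Cryzl1 1451473_a_at had group means of 7.66 in HMGN1 WT, 7.11 in HMGN3 WT, 7.10 in the group labelled HMGN5 knock out, 7.07 in the HMGN3 knock out, 7.00 in the HMGN1 knock out and 6.98 in HMGN5 WT. Neighbouring groups overlapped throughout the lower 5, whereas HMGN1 WT overlapped with none. Against the mean of HMGN3 WT and HMGN5 WT, HMGN1 WT was higher by 0.61 ± 0.06, 0.61 ± 0.09 and 0.49 ± 0.10 on 1451473_a_at, 1430547_s_at and 1430546_at of Cryzl1. The HMGN1 knock out differed from the same mean by -0.05, -0.13 and -0.37 ± 0.10 on them. Of these, only that of 1430546_at was called (adjusted p = 0.0204 by limma). Its call was lost without array 2 of the knock out (0.109) and with the male share described below in the fit (-0.14, 0.28). On Cryzl1 1440045_at HMGN1 WT differed by 0.15 and the knock out by 0.12, and neither was called. Sh3bgr was higher by 0.64 ± 0.09 in HMGN1 WT and differed by -0.26 ± 0.09 in the knock out, where its call (adjusted p = 0.0475 by limma) was lost in 7 of the 9 fits without 1 array, in the unfiltered table (0.0691), after quantile normalization (0.084) and with the compared groups alone (0.0584). For Urb1 1454841_at these values were 0.35 and -0.33, so that the means of both HMGN1 groups lay on either side of the rest, with overlap.

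Some probe sets of genes nearer to Hmgn1 were higher in HMGN1 WT as well. Against the other WT groups, HMGN1 WT was higher by 0.36, 0.32 and 0.21 on 3 Brwd1 probe sets, by 0.33 on Psmg1 and by 0.33 on Ets2 1416268_at. The remaining Brwd1 probe sets, 1433955_at and 1452503_a_at, differed by -0.09 and -0.10 and Ets2 1447685_x_at by 0.13, and none of these 3 was called. In the knock out, Brwd1 1427322_at was higher by 0.26 and Psmg1 by 0.17 than the other WT groups, and Ets2 1416268_at differed by 0.16. Pigp was higher in the knock out by 0.18 and differed in HMGN1 WT by -0.14. Hmgn1 showed the opposite layout: HMGN1 WT was within 0.09 of the other WT groups and the knock out differed from them by -0.60 to -0.82. Counted over the 9 genes, 9 of 26 probe sets were called higher and 0 lower in HMGN1 WT against the other WT groups, where 17.9% of all probe sets were called (11.2% higher and 6.62% lower). The knock out had 6 of 26 called, 4 higher and 2 lower, against 16.5% of all (8.18% higher and 8.36% lower). That count was 2 without array 2 of the knock out, 3 without its array 3, 3 without array 2 of HMGN3 WT and 2 with the compared groups alone. In these fits 12.3% to 14.1% of all probe sets were called. These comparisons share arrays with the one that chose the genes and with each other and are given as values.

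**Figure D2:**
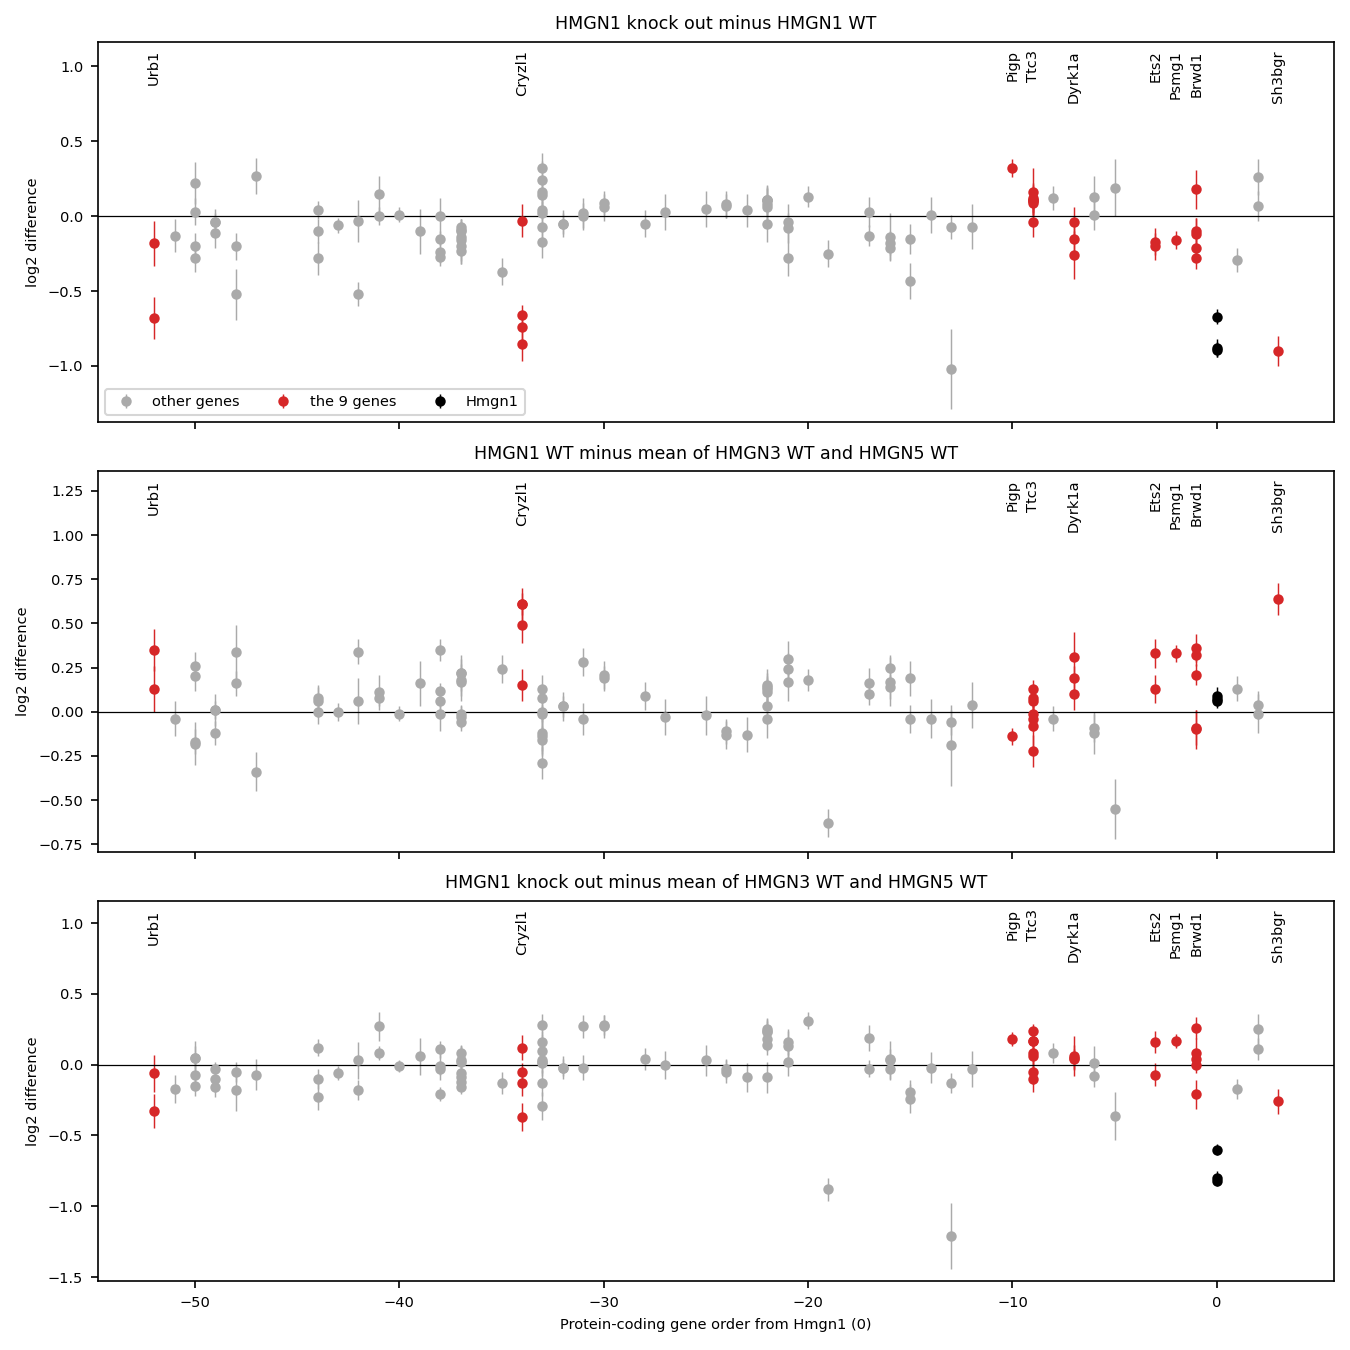
Log2 differences in primary MEFs (vertical axes, bars are standard errors) of the tested probe sets of the stretch by gene order from Hmgn1 at 0 (horizontal axis), with the 9 genes in red, Hmgn1 in black and other genes in grey. The upper panel compares both HMGN1 groups, the others set each HMGN1 group against the other WT groups. Cryzl1 and Sh3bgr are low in the upper panel and high in the middle one.

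The X-linked Xist and Y-linked Eif2s3y differ between these groups. All 3 HMGN1 WT arrays had high Xist (8.56 to 8.63) and low Eif2s3y (1.31 to 1.41), whereas HMGN3 WT, HMGN5 WT and the HMGN3 knock out had low Xist (2.40 to 2.78) and high Eif2s3y (6.21 to 6.59). The HMGN1 knock out arrays were of 3 kinds, with Xist at 3.14, 8.61 and 7.40 and Eif2s3y at 5.85, 1.28 and 5.23. Its array 2 had values of both genes near those of HMGN1 WT, and there Sh3bgr read 2.71 and Cryzl1 1451473_a_at 6.97. In the group labelled HMGN5 knock out, array 1 had Xist at 8.72, and there Sh3bgr read 3.16 and Cryzl1 1451473_a_at 6.92. These are single arrays, and the part of sex in the differences of the 9 genes was not tested. When the male share estimated from both genes entered the fit, the knock out differences were -0.79 for Sh3bgr, -0.74 for Cryzl1 1451473_a_at and 0.37 for Pigp. There 5 probe sets were again called, against 0.497% of all. For HMGN1 WT against the other WT groups, 4 of the 9 calls were left in that fit. Over all probe sets 5.91% were called, from 17.9%. Cryzl1 kept 0.79, 0.61 and 0.93 on its probe sets (in the order above) and Brwd1 1427322_at 0.50. Sh3bgr went to 0.42 (adjusted p = 0.0845 by limma), and the calls of Psmg1, Ets2 and 2 Brwd1 probe sets were lost. HMGN1 WT differs from the other WT groups in Xist and Eif2s3y on every array, so sex and group cannot be told apart there.

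Cell type markers were compared between these groups too. The mean level of 9 fibroblast markers was 8.97 to 9.29 in the HMGN1 knock out and 8.94 to 9.14 in HMGN1 WT. In HMGN3 WT it was 9.73 to 9.80 and in HMGN5 WT 9.31 to 9.44, above every HMGN1 WT array. The HMGN3 knock out had 9.78 to 9.91 and the group labelled HMGN5 knock out 9.13 to 9.43. The mean level of 7 macrophage markers was 4.37 to 4.73 in the HMGN1 knock out, 4.87 in HMGN1 WT and 5.99 to 6.16 in HMGN3 WT, with 6 of 7 above the filter. It was 4.98 to 5.79 in HMGN5 WT, 5.78 to 6.41 in the HMGN3 knock out and 4.33 to 6.63 in the group labelled HMGN5 knock out. The mean level of 6 striated muscle markers, which bears on Sh3bgr as a muscle gene, was 3.21 to 3.35 in the HMGN1 knock out and 3.15 to 3.21 in HMGN1 WT. These ranges meet, and that of HMGN3 WT (3.09 to 3.30) spans much of both. The part of other cell types in the differences of the 9 genes was not tested, and in these bulk samples fewer cells of a type and less RNA per cell cannot be told apart.

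None of the 9 genes was called in the other knock outs. In the HMGN3 knock out 0 of 26 probe sets were called, where 0.416% of all were, and 1 had an unadjusted p under 0.05 by limma. In the group labelled HMGN5 knock out 0 of 26 were called, against 0.105% of all, and 0 had an unadjusted p under 0.05. Sh3bgr differed by 0.05 and 0.00 in these groups, and the 4 Cryzl1 probe sets by -0.05 to -0.01 in the first and 0.12 to 0.18 in the second. The median over the 26 probe sets was -0.023 in the HMGN3 knock out and 0.028 in the group labelled HMGN5 knock out, against -0.135 in the HMGN1 knock out. Over all probe sets the medians were -0.01, -0.003 and -0.025. These groups were the yardstick of the choice, so the contrast between them and the HMGN1 knock out is no test.

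HMGN5 WT was also compared with HMGN3 WT. The choice of genes did not use this comparison itself, but its 6 arrays are the controls of the yardstick knock outs, so its values are a description. Of the 26 probe sets 1 was called, against 12.9% of all. It was Psmg1, the proteasome chaperone, which read 7.37, 7.34 and 7.26 in HMGN5 WT and 7.01, 6.89 and 6.92 in HMGN3 WT. All 3 arrays of HMGN5 WT lay higher, by 0.38 ± 0.06. Sh3bgr, Cryzl1, Brwd1, Ets2, Pigp, Ttc3, Dyrk1a and Urb1 were not called. Cryzl1 differed by -0.13 ± 0.07, -0.19 ± 0.10 and -0.23 ± 0.12 on 1451473_a_at, 1430547_s_at and 1430546_at, and the arrays of both groups did not overlap on them. Of the 26 probe sets 9 (34.6%) did not overlap, against 35.3% of those on the rest of chromosome 16. The share over all probe sets is not given here, and nothing is read from this count.

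Of the 38 other genes of the stretch that were tested, 1 was called in the HMGN1 knock out. Of their 82 probe sets tested in primary MEFs 1 was called (1.22%), Ifnar1 1449026_at. Of the 759 on the rest of chromosome 16 2 were (0.264%), against 0.304% of all probe sets. The groups did not overlap for 22 of the 82 (26.8%), against 21.5% on the rest of the chromosome and 19.7% of all. Ifnar1, a subunit of the type I interferon receptor, lies 42 genes before Hmgn1, between Urb1 and Cryzl1. It read 5.43, 5.62 and 5.65 in the knock out and 6.14, 6.02 and 6.11 in HMGN1 WT, a difference of -0.52 ± 0.08 without overlap. HMGN1 WT was higher in Ifnar1 than the other WT groups by 0.34, the same layout as in Cryzl1. Sim2, at -1.02 ± 0.27, and Paxbp1, at -0.52 ± 0.17, had larger errors and were not called. The median was -0.045 over the other genes of the stretch and -0.046 over the rest of the chromosome, close to the -0.025 of all probe sets. With the 50 tested genes before Hmgn1 and the 13 after it, 1 of 114 probe sets was called (0.877%).

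Over the 18 primary MEF arrays, Ifnar1 was also the gene most like Cryzl1, with a Pearson r of 0.91 to 1430546_at and 0.93 to 1430547_s_at. Next came Lims1 (0.804) and Ccnl2 (0.801) for the former and Cdc5l (0.903) and Pop1 (0.874) for the latter. Sh3bgr was most like Lyrm1 (0.851), Sbk1 (0.822) and Kcnq1ot1 (0.821), all 3 on chromosome 7. Among the 50 most like probe sets, 5, 5 and 7 lie on chromosome 16 for 1430546_at, 1430547_s_at and Sh3bgr. These correlations share arrays, groups and the HMGN1 contrast, and they are a description.

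In SV40 MEFs and MIN6 cells the genes are read under added HMGN constructs. All pools of a cell type share 1 empty vector group, which is also the control of the HMGN1 constructs that the choice of genes used. With HMGN1 OE in SV40 MEFs, Hmgn1 itself differed by -0.01 to -0.08 on its 3 probe sets, and whether these probe sets cover the construct was not analysed here. There 2 of 25 probe sets were called, against 20.9% of all: Brwd1 1433955_at at -0.29 ± 0.09 and Urb1 1454841_at at -0.33 ± 0.09. Without array 3 of the HMGN1 OE pool 0 were called, and without array 1 of that pool or array 3 of the empty vector 1 was. In these fits 14.9% to 17.1% of all probe sets were called. Cryzl1 differed by -0.17 to 0.02. In MIN6 cells with HMGN1 OE 0 of 26 were called, against 0.468% of all, and 5 had an unadjusted p under 0.05 by limma.

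**Figure D3:**
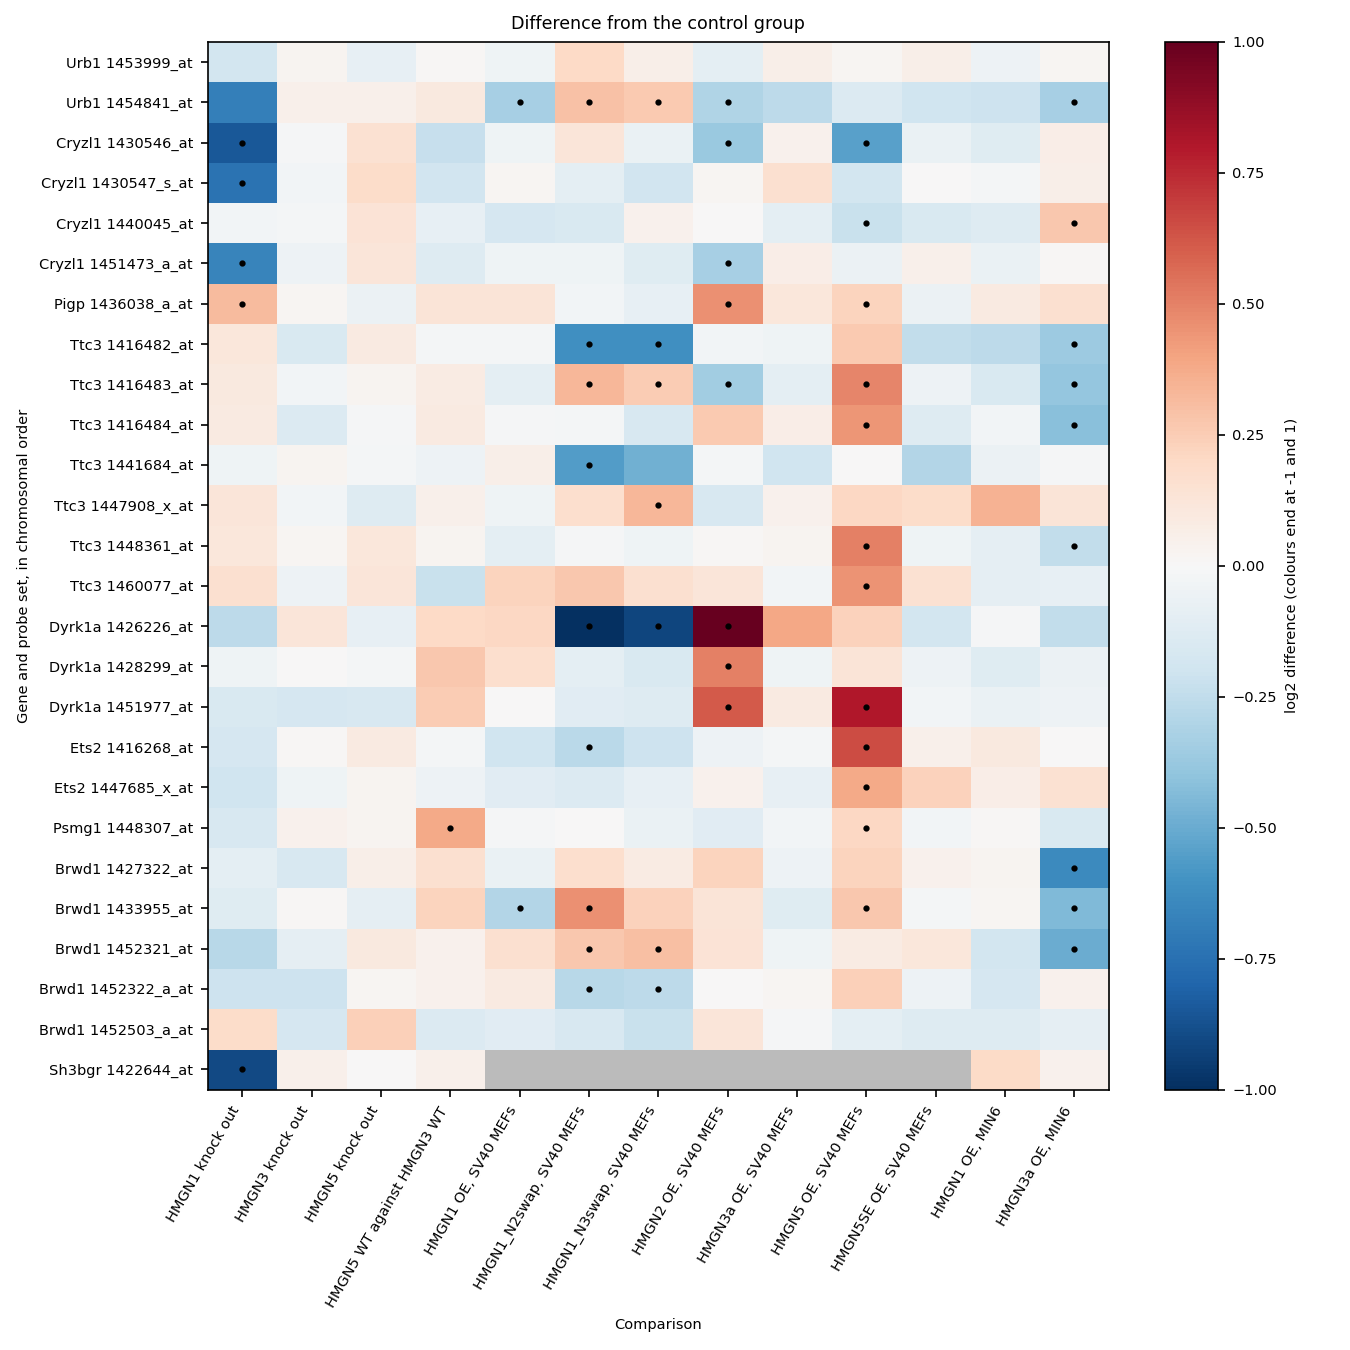
Log2 difference from the control group for the 26 probe sets of the 9 genes (vertical axis, in chromosomal order) in 13 comparisons (horizontal axis); red is higher, blue lower, grey not tested, and colours end at -1 and 1. Black points mark an adjusted p under 0.05. Sh3bgr and 3 of the 4 Cryzl1 probe sets are deep blue in the HMGN1 knock out, Dyrk1a is red with HMGN2 OE, and most genes from Pigp to Psmg1 are red with HMGN5 OE.

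The pools with HMGN1_N2swap and HMGN1_N3swap had 9 and 7 of 25 probe sets called, against 32.1% and 32.6% of all. Dyrk1a 1426226_at, the kinase, read 4.25, 4.47 and 5.82 with N2swap, 5.39, 4.65 and 4.82 with N3swap and 6.06, 5.67 and 5.90 with the empty vector. The differences were -1.03 ± 0.27 and -0.92 ± 0.27, and the other Dyrk1a probe sets were not called. Ttc3 went both ways, at -0.61 in both pools on 1416482_at and at 0.33 and 0.25 on 1416483_at. In both pools the 3' against 5' difference of Actb control probe sets, a sign of RNA quality, was larger (0.39 to 0.79) than with the empty vector (0.23 to 0.29). With that difference as a covariate, an alternative added after seeing the data, Dyrk1a 1426226_at turned to 0.10 and 0.11 and Ttc3 1416482_at to 0.03 and -0.03. In that fit 23.8% of all probe sets were called with N2swap and 23.7% with N3swap. N2swap kept 3 of its 9 calls and gained 2. N3swap kept 0 of its 7, Ttc3 1416483_at among those lost (0.16, adjusted p = 0.156 by limma), and gained Cryzl1 1430546_at (-0.38) and Ttc3 1448361_at (-0.26). The counts also rest on single arrays. N2swap had 5 without its array 1 and 5 without array 2 of the empty vector. N3swap had 2 without its array 2, 3 without array 2 of the empty vector and 4 without array 1 of the empty vector. Over all probe sets 26% to 26.8% were called in these fits of both pools.

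With HMGN2 OE in SV40 MEFs, which the choice of genes did not use, Dyrk1a and Pigp rose. Dyrk1a 1426226_at read 7.47, 7.80 and 7.56 with HMGN2 OE against 6.06, 5.67 and 5.90 with the empty vector. All 3 pool arrays lay above all vector arrays, by 1.73 ± 0.27 (limma, adjusted p = 3.55e-05, 3 arrays per group). Dyrk1a rose on its other probe sets as well, by 0.61 ± 0.11 on 1451977_at (adjusted p = 0.000212) and by 0.50 ± 0.08 on 1428299_at (adjusted p = 8.69e-05). The Actb difference was 0.01 to 0.20 in this pool, and with it as a covariate the 3 rises of Dyrk1a were 1.25, 0.53 and 0.48 and were still called. Pigp read 8.47, 8.52 and 8.41 against 8.03, 8.00 and 7.99, a rise of 0.46 ± 0.06 (adjusted p = 7.33e-06). All 3 HMGN2 arrays of Pigp lay higher.

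Cryzl1, Ttc3 and Urb1 fell with HMGN2 OE. Cryzl1 1451473_a_at read 7.94, 7.84 and 7.88 against 8.19, 8.23 and 8.23, without overlap (-0.33 ± 0.07, limma adjusted p = 6e-04). Cryzl1 1430546_at differed by -0.37 ± 0.10 (adjusted p = 0.00489), whereas its probe sets 1430547_s_at and 1440045_at were not called. Ttc3 1416483_at differed by -0.35 ± 0.06 (adjusted p = 0.000156), although Ttc3 1416484_at differed by 0.26 and was not called. Urb1 1454841_at differed by -0.30 ± 0.09 (adjusted p = 0.0108), a call lost without array 2 (0.0671) or array 3 (0.0571) of the HMGN2 pool. In all, 8 of 25 probe sets were called, 4 in each direction, while 39.8% of all probe sets were called (19.7% higher and 20.1% lower). The groups did not overlap for 12 of the 25 (48%), against 53.2% of the 754 probe sets on the rest of chromosome 16. Without the share over all probe sets, nothing is read from that overlap. The number called was 7 to 8 without single arrays and 12 with the Actb difference as a covariate, where 38.6% of all were called. Nothing is read from this count. The mean level of the fibroblast markers was 7.93 to 8.10 in the pool and 6.69 to 6.72 with the empty vector. What part that has in these changes was not tested.

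In the pool labelled HMGN5 OE, 6 of the 8 genes tested rose on at least 1 probe set. Ets2, the transcription factor, read 8.50, 8.47 and 8.52 on 1416268_at against 7.89, 7.86 and 7.78 with the empty vector. It rose by 0.65 ± 0.09 with no overlap (limma, adjusted p = 3.41e-06, 3 arrays per group), and by 0.38 ± 0.09 on 1447685_x_at. Dyrk1a 1451977_at read 6.85, 7.00 and 6.89 against 6.21, 6.06 and 6.07, a rise of 0.80 ± 0.11 (adjusted p = 7.85e-06), while its probe sets 1426226_at and 1428299_at were not called. Ttc3 rose on 4 of its 7 probe sets, by 0.44 to 0.50. On the brightest, 1448361_at, it read 9.62, 9.69 and 9.66 against 9.18, 9.15 and 9.14.

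Smaller rises in the same pool were those of Brwd1 1433955_at (0.27 ± 0.09), Pigp (0.22 ± 0.06) and Psmg1 (0.21 ± 0.06). That of Brwd1, which has no other probe set called here, was lost in 3 of the 6 fits without 1 array (adjusted p up to 0.0958 by limma). Psmg1 read 9.36, 9.37 and 9.35 against 9.17, 9.13 and 9.15. Without overlap as well, Cryzl1 1430546_at fell from 6.64, 6.74 and 6.71 to 6.13, 6.17 and 6.19, by 0.54 on the log2 scale (adjusted p = 0.000185 by limma). Cryzl1 1440045_at differed by -0.22 ± 0.08 (adjusted p = 0.0464), a call lost in 5 of the 6 fits without 1 of the compared arrays. Hmgn1 rose in the same pool by 0.45, 0.37 and 0.44 on its 3 probe sets.

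Counted over the genes, 12 of 25 probe sets were called in the pool labelled HMGN5 OE, 10 higher and 2 lower, against 33.3% of all probe sets (16.3% higher and 17.0% lower). The groups did not overlap for 17 of the 25 (68%), against 55.6% of the 754 probe sets on the rest of chromosome 16. Without the share over all probe sets, nothing is read from that overlap. The share of the genes' probe sets called higher was 40%. The rest of chromosome 16 leaned the same way. Of 83 probe sets of other genes in the stretch 35 were higher (42.2%) and 2 lower, and of 754 on the rest of the chromosome 31% were higher. The median difference was 0.217 over the 25 probe sets, 0.191 over the other genes of the stretch, 0.127 over the rest of the chromosome and -0.019 over all probe sets. Ordered by the share called higher, chromosome 16 (32.6%) came second of 20 after chromosome 4 (32.8%), and chromosome 9 was lowest at 8.85%. The mean level of the fibroblast markers was 7.83 to 7.90 in this pool against 6.69 to 6.72 with the empty vector, and its part in these rises was not tested. Among the neighbours, Slc5a3, an inositol transporter, rose by 1.66 ± 0.16. Cbr3, a carbonyl reductase, and Sim2, a transcription factor, had vector means (3.60 and 2.01) below the filter of 3.63 and read 6.98 and 4.97 in the pool, so their fitted differences of 3.38 and 2.96 have no measured starting level.

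**Figure D4:**
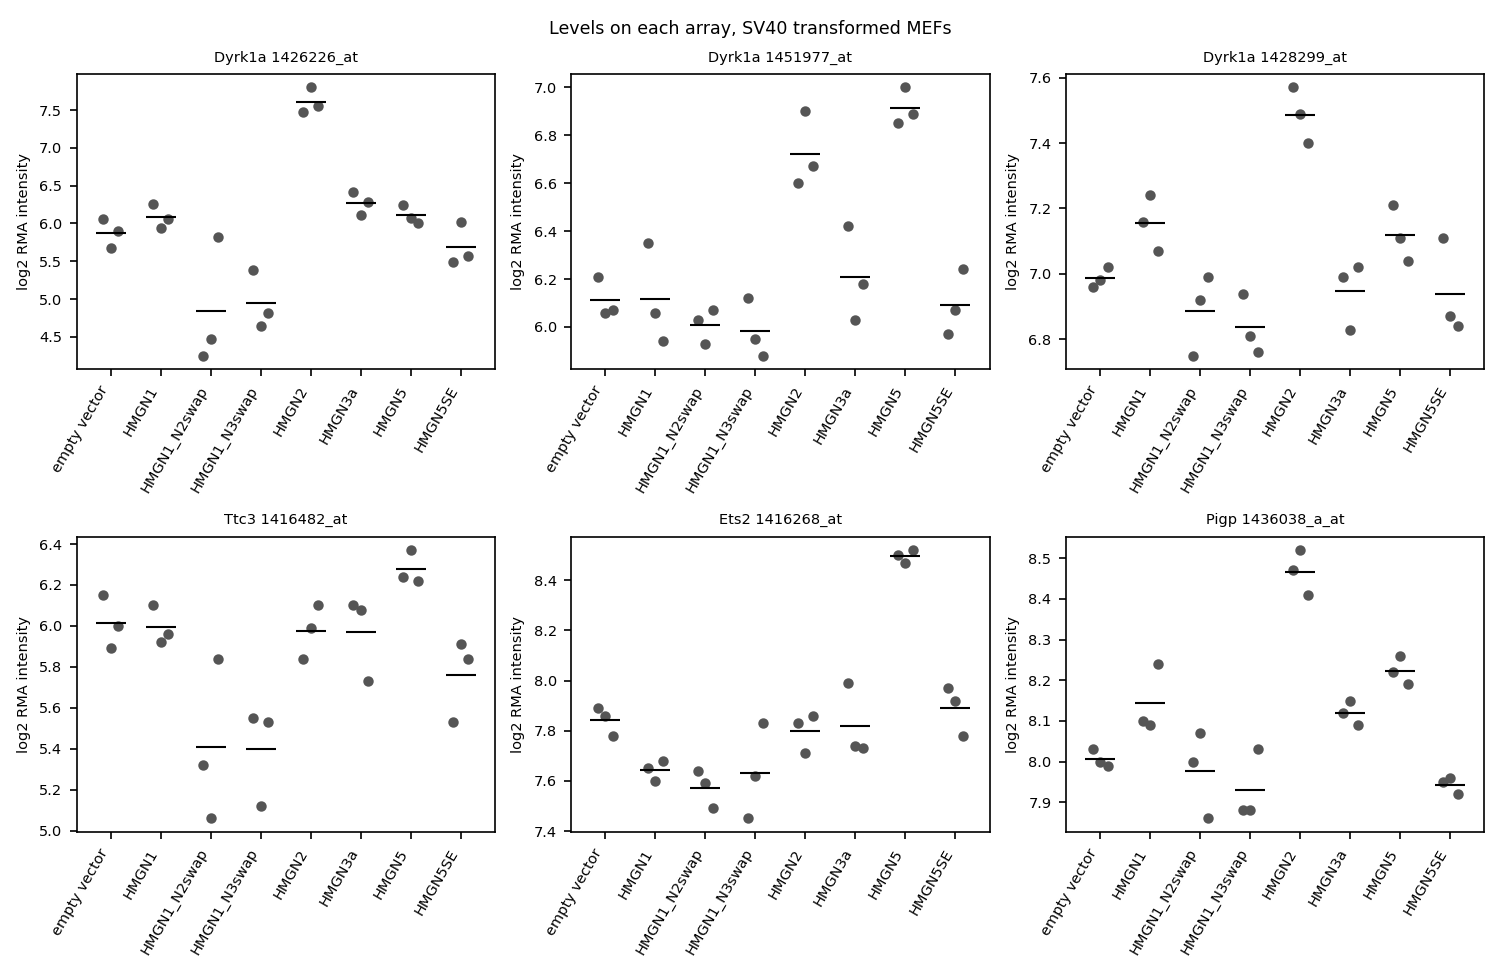
Log2 RMA intensity (vertical axis) of 6 probe sets on the 24 arrays of SV40 MEFs by construct (horizontal axis); points are arrays and bars are group means. Dyrk1a is high with HMGN2 OE on all 3 probe sets and high with HMGN5 OE on 1451977_at, Ets2 is high with HMGN5 OE, and the swap arrays of Dyrk1a 1426226_at spread from 4.25 to 5.82.

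With HMGN3a OE and HMGN5SE OE in SV40 MEFs 0 of 25 probe sets were called, against 0.0103% and 0.0138% of all. At an unadjusted p under 0.05 by limma there were 1 and 2. HMGN5SE OE gave Dyrk1a 1451977_at values of 5.97, 6.07 and 6.24 and Ets2 1416268_at values of 7.97, 7.92 and 7.78, which overlap with the empty vector. The median over the 25 probe sets was -0.024 with HMGN3a OE and -0.043 with HMGN5SE OE. The difference between the pools labelled HMGN5 OE and HMGN5SE OE was not tested directly.

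In MIN6 cells Brwd1 and Ttc3 fell with HMGN3a OE. Brwd1 1427322_at read 6.94, 7.25 and 7.29 against 7.74, 7.80 and 7.86 with the empty vector, without overlap (-0.64 ± 0.10, limma adjusted p = 0.00121, 3 arrays per group). Brwd1 1452321_at read 7.02, 7.31 and 7.44 against 7.90, 7.66 and 7.70 (-0.50 ± 0.11, adjusted p = 0.00615), and 1433955_at differed by -0.44 ± 0.11. Its probe sets 1452322_a_at and 1452503_a_at were not called. Ttc3 fell on 4 of its 7 probe sets: 1416484_at read 9.29, 9.41 and 9.34 against 9.75, 9.80 and 9.77, a difference of -0.42 ± 0.06 (adjusted p = 0.000623). The others were 1416483_at (-0.39), 1448361_at (-0.25) and 1416482_at (-0.36). The call of 1448361_at was lost without array 3 of the empty vector (adjusted p = 0.0534 by limma). That of 1416482_at was lost in 4 of the 6 fits without 1 array, with a value of -0.22 without array 1 of the empty vector, and after quantile normalization (0.0576), with the compared groups alone (0.0718) and with the Actb difference as a covariate (0.0652). All 3 pool arrays of 1416484_at lay below the vector arrays.

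Urb1 1454841_at also fell with HMGN3a OE in MIN6 cells, from 7.39, 7.20 and 7.18 to 6.92, 6.80 and 7.06 (-0.33 ± 0.09, limma adjusted p = 0.017), a call lost without array 1 of the empty vector (0.0526) or array 2 of the pool (0.0623). Cryzl1 1440045_at rose by 0.27 ± 0.09 (adjusted p = 0.0484), a call lost when any of 5 of the 6 compared arrays was left out. The bright Cryzl1 probe set 1451473_a_at read 9.11, 9.05 and 9.12 against 9.18, 9.05 and 9.03 and overlapped. Together 9 of 26 probe sets were called, against 27.0% of all. The groups did not overlap for 12 of the 26 (46.2%), against 35.9% of the 743 probe sets on the rest of chromosome 16. Without the share over all probe sets, nothing is read from that overlap. Of 72 probe sets of other genes in the stretch 16 were called, all lower (22.2%), among them Cbr3 at -1.41 ± 0.09. The mean level of 5 neuron markers was 8.33 to 8.42 in this pool and 9.29 to 9.33 with the empty vector, and its part in these changes was not tested. The median over the 26 probe sets was -0.056, against 0.010 over all probe sets.

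A list of 22 tested genes elsewhere in the genome holds paralogs and partners of the 9 genes. It also holds Hmgn3 and Hmgn5, relatives of Hmgn1, so the counts are not of relatives of the 9 genes alone. Its probe sets were called at shares to be read against those of all probe sets. In the HMGN1 knock out 0 of 48 probe sets were called by limma, where 0.304% of all were, and 6 had an unadjusted p under 0.05. In the pool with HMGN2 OE 26 of 50 were called, against 39.8% of all, among them Phip, a relative of Brwd1, by up to 1.74 ± 0.25, and Ets1, a relative of Ets2, by 0.59 to 0.98. Pigq, which acts in the same enzyme as Pigp, fell there on 4 probe sets, with differences of -0.50 to -0.76, whereas Pigp rose. With HMGN3a OE in MIN6 cells Dyrk2, a relative of Dyrk1a, fell, with differences of -0.87 to -1.01, and 12 of 46 were called, against 27.0% of all.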

How the data were processed

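RNA was hybridised to Affymetrix whole-genome mouse arrays. The authors deposited 1 linear intensity for each probe set and array, and the submitters' processing notes name RMA, whose version and settings are not given in the sources used here. The log2 of all 51 columns (0 unused) was taken, with no second normalization. Gene names came from GEO's platform annotation, updated through gene IDs: of 45101 probe sets, 64 are controls, 34945 have 1 symbol, 932 several and 9160 none. Gene order came from the RefSeq table (GRCm38.p6).

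In each cell type, probe sets were kept whose highest group mean reached the 40th percentile of group means (log2 1.99, 3.63 and 5.13). limma 3.58.1 (lmFit and eBayes, R 4.3.3) was fitted with a mean per group over all arrays of the cell type, each probe set on its own. P-values are two-sided, adjusted by Benjamini-Hochberg over all probe sets that passed, and called under 0.05. The 9 genes, the lists and the tests were chosen with earlier results of these data known. Genes were named by rule: all 9 and Hmgn1, up to 6 rises and 6 falls of other genes in the stretch, up to 4 paralogs called, and the 3 genes most like each of 3 probe sets. Sequence matches were exact. The share of male cells was estimated from Eif2s3y and Xist. The 3 arrays per group limit the precision (median SD within groups 0.0741 to 0.141). Same-numbered arrays deviated together by over 0.1 in every pair in none of the comparisons, so the numbers were not taken as pairs. The fit was tested on simulated data. Alternatives were 1 probe set per gene, a second quantile normalization, the unfiltered table, fits of the compared groups alone, a block for the replicate number, leaving out each array, the share of male cells, and, added after seeing the data, the Actb difference. Figures used matplotlib 3.10.9, pandas 2.3.3 and Python 3.11.15.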

Additional observations from a re-analysis of the deposited data

How the results depend on the processing

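The number of the 9 genes' probe sets called moved by over 1.5 times in few settings, and the cause was not tested. Fitted to the arrays of the compared groups alone, the count was 2 (from 5) in the HMGN1 knock out, 2 (from 6) for the knock out against the other WT groups, 4 (from 2) with HMGN1 OE in SV40 MEFs and 5 (from 9) with HMGN1_N2swap. In the same order, the share called over all probe sets was 0.0385% (from 0.304%), 13.6% (from 16.5%), 25.1% (from 20.9%) and 20.8% (from 32.1%). Quantile normalization again gave 4 (from 2) with HMGN1 OE in SV40 MEFs, the share of male cells gave 4 (from 9) for HMGN1 WT against the other WT groups, and 1 probe set per gene gave 2 called genes with HMGN1_N3swap. Over all that these settings tested, 20.2% (from 20.9%), 5.91% (from 17.9%) and 37.3% were called. In the fit with the Actb difference, an alternative added once the data had been seen, HMGN1_N2swap had 5 calls (3 of its 9 and 2 others) and HMGN1_N3swap 2 (0 of its 7 and 2 others), and directions turned for Dyrk1a 1426226_at (0.10 and 0.11), Ttc3 1416482_at (0.03) and Ttc3 1416484_at (0.43). The share over all probe sets in that fit was 23.8% for N2swap (from 32.1%) and 23.7% for N3swap (from 32.6%). Leaving out single arrays gave 4 to 5 calls in the HMGN1 knock out, 2 to 6 for the knock out and 7 to 10 for HMGN1 WT against the other WT groups, 0 to 2 with HMGN1 OE, 5 to 7 with N2swap, 2 to 9 with N3swap, 7 to 8 with HMGN2 OE and 10 to 13 with HMGN5 OE in SV40 MEFs, 6 to 8 with HMGN3a OE in MIN6 cells, 1 for HMGN5 WT against HMGN3 WT and 0 in the others. The knock out against the other WT groups had 2 calls without array 2 of the knock out, 3 without its array 3 and 3 without array 2 of HMGN3 WT. Shares over all probe sets moved in such fits as well. In the HMGN1 knock out they were 0.0525% (without array 3 of HMGN1 WT) to 0.332%, from 0.304%. For the knock out and HMGN1 WT against the other WT groups they were 12.3% to 15.7% and 9.18% to 19.9%. In SV40 MEFs HMGN1 OE had 14.7% to 17.1%, N2swap 26% to 34.6% and N3swap 26.1% to 34.2%. HMGN2 OE had 32% to 37.3% and HMGN5 OE 28.6% to 29.7%. HMGN3a OE in MIN6 cells had 22.1% to 24.2%, and HMGN5 WT against HMGN3 WT 8.65% to 12.1%. Single values were counted for the 9 genes and Hmgn1 together. Leaving out an array kept the call or its absence for 2624 of them, ended it for 97 and made it for 21. It turned the direction of no called one. With the replicate block, 4 probe sets of the 9 genes were called in the HMGN1 knock out (from 5), since Pigp went to an adjusted p of 0.0648 by limma. Over all comparisons 422 single values of the 9 genes and Hmgn1 kept their side of the threshold, 5 lost a call and 1 gained one.

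Levels near the filter limit Sh3bgr, the second Urb1 probe set and the dim Brwd1 and Ttc3 probe sets, where RMA intensities are compressed. Probe sets of Cryzl1, Dyrk1a and Ttc3 disagreed with each other, and what parts of the transcripts they cover was not analysed here.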
